A study of Mus musculus with 2 samples.

Results

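Peroxisomes are membrane-bound organelles that shorten fatty acids the mitochondria handle poorly, such as very long, branched and dicarboxylic chains, and that make the first intermediates of ether lipids. Their proteins are made in the cytosol and brought in by peroxins, the products of the Pex genes, while their oxidases release hydrogen peroxide that catalase removes. In fat, peroxisomes become more numerous as adipocytes mature, and several peroxisomal enzymes are known targets of PPAR transcription factors. A list of 40 named mouse genes of this system was examined, 13 peroxins and 27 enzymes, transporters and membrane proteins, out of 19938 genes named on the array. Every member was found, each with 1 probe set that carried its symbol alone.

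The RNA came from white adipose tissue of an Oma1-deficient mouse (Oma1_KO) and of a control mouse (Oma1_WT), both 24 weeks old and both fed a high-fat diet for 20 weeks. The Oma1 protein is a protease of the inner mitochondrial membrane. There was 1 array per group, so the spread between animals was not measured and the genotype could not be tested. The labels used here do not give the fat depot, the sex, the strain, the allele or whether RNA of several mice was pooled. In bulk tissue, fewer cells of a type and less RNA per cell cannot be told apart.

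Intensities were deposited on a linear scale, with a median of 83 on each array. A difference is log2(intensity + 1) in Oma1_KO minus that in Oma1_WT, a scale that understates the change of dim genes, and the number of arrays limits its precision. For scale, the Oma1_KO minus Oma1_WT difference varied among probe sets of the same gene with an SD of 0.17, over 545 genes with 2 probe sets. That SD covers disagreement of probe sets on the same RNA only. Of the members, 37 had a mean signal at or above an intensity of 83, the filter that 11393 named genes passed. Pex26, Acox2 and Pxmp2 were under it. The filter is the median of all probe sets and no background level was at hand, so whether these 3 were detected is not known. The median difference of the genes above the filter was -0.06.

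Oma1 itself read 155 in Oma1_KO and 187 in Oma1_WT, a difference of -0.27, and 1594 genes above the filter had a lower difference. Where its probe set lies relative to the disrupted part of the gene is not given, so this value checks nothing about the label. Adipocyte genes were bright on both arrays. Cidec read 9316 in Oma1_KO and 10771 in Oma1_WT, and Fabp4 6813 in Oma1_KO and 7685 in Oma1_WT. Of 9 adipocyte markers 8 were lower in Oma1_KO (median -0.11). Among all genes above the filter 62.3% were lower (median -0.06), which bears on every marker count here. The summed intensity of the 9 adipocyte markers was 52187 in Oma1_KO and 58735 in Oma1_WT. Of 9 hepatocyte markers 7 were higher in Oma1_KO, with sums of 11370 in Oma1_KO and 9971 in Oma1_WT, while Cyp2e1 was lower at 3237 in Oma1_KO and 6384 in Oma1_WT. Without Cyp2e1, an omission that was not planned, the sums were 8133 in Oma1_KO and 3587 in Oma1_WT. Alb alone read 4523 in Oma1_KO and 1692 in Oma1_WT, so these sums rest largely on 1 gene. Apoa1 read 904 in Oma1_KO and 253 in Oma1_WT, and Apoa2 715 in Oma1_KO and 345 in Oma1_WT. Macrophage markers were higher in 8 of 9 cases (sums 33600 in Oma1_KO and 28760 in Oma1_WT). All 7 endothelial markers (6571 in Oma1_KO, 8585 in Oma1_WT) and 7 of 8 mesothelial markers (1761 in Oma1_KO, 2586 in Oma1_WT) were lower. Of 8 brown adipocyte markers 5 were higher, 2 lower and 1 equal (1779 in Oma1_KO, 1485 in Oma1_WT), but only 3 were above the filter. Cidea, which enlarges lipid droplets and is plentiful in brown adipocytes, read 213 in Oma1_KO and 84 in Oma1_WT (1.33), while Ucp1, the uncoupling protein that defines it, was under the filter at 55 in Oma1_KO and 38 in Oma1_WT. The sum over 6 kidney tubule markers was 267 in Oma1_KO and 297 in Oma1_WT, and that over 6 skeletal muscle markers was 646 in Oma1_KO and 600 in Oma1_WT. No marker was at 0, the lowest deposited value being 8. The part of these cell types in the differences below was not tested.

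The 40 genes differed between the arrays about as much as other genes did. Of the 40 members 27 were lower in Oma1_KO, 11 higher and 2 equal, with a median of -0.08 and a range from -0.63 to 0.54. A lower value was also found for 62.3% of all genes above the filter. The difference exceeded the SD of 0.17 in 15 members (37.5%), beside 41.0% of the genes above the filter. A difference of at least 0.32 on the log2 scale was taken as the smaller size of interest and 1.5-fold (0.58) as the larger. At the smaller size 3 members were higher and 3 lower, or 15% of the list, against 14.7% of the genes above the filter (4.99% higher, 9.74% lower). At 1.5-fold the list held 2 lower members and 0 higher ones, where the background was 1.74% lower and 1.23% higher. The lower members at that size were Ehhadh and Acaa1b. After quantile normalisation, loess or centring neither reached 1.5-fold, their differences closest to 0 being -0.55 and -0.56, and Scp2 became the member at least 1.5-fold higher, with up to 0.61. At the smaller size the share of members was near that of the array, and at the larger size it rested on these 2 genes.

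**Figure D1:**
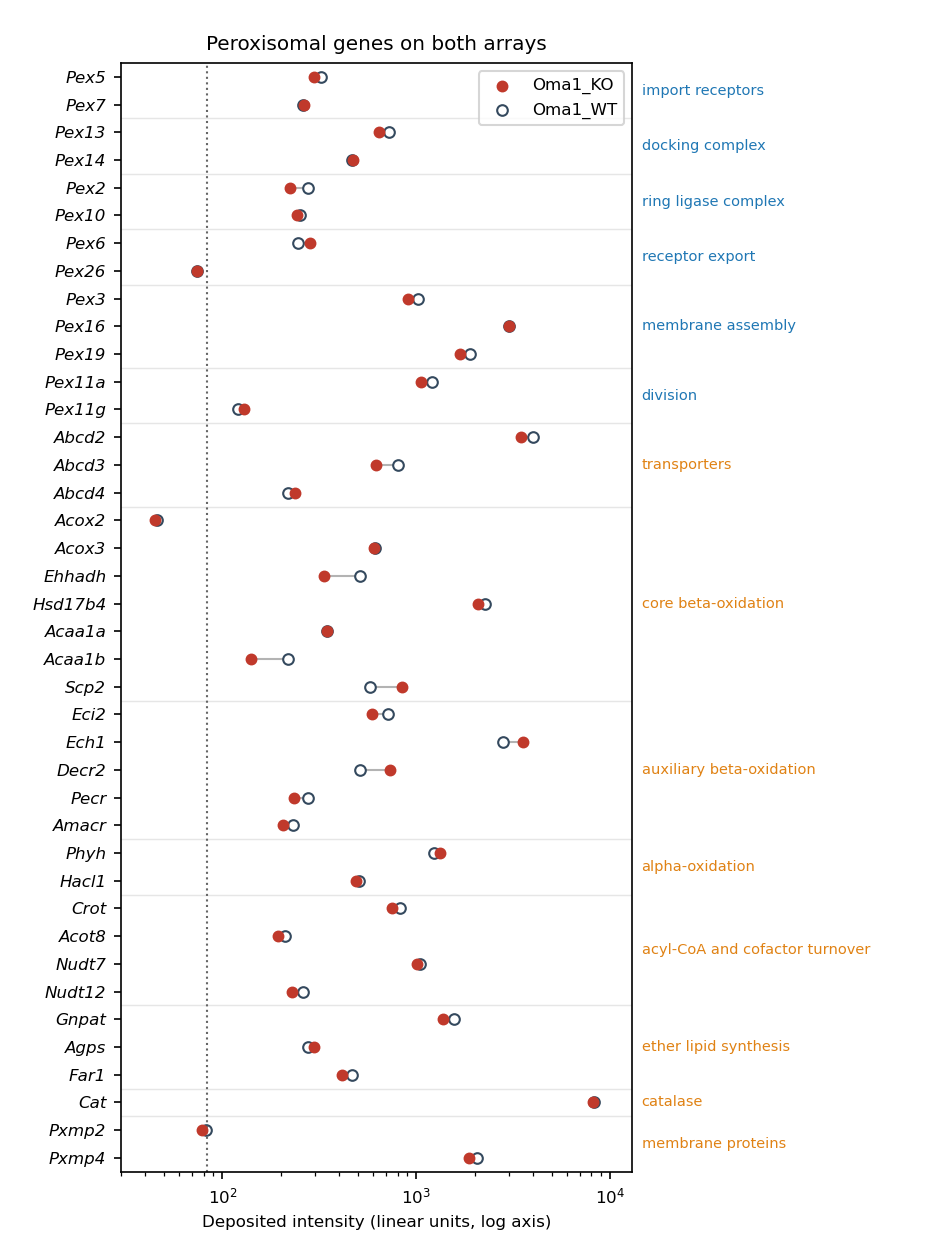
Deposited intensity (log axis) of each of the 40 genes in Oma1_KO (filled) and Oma1_WT (open), grouped by role, with peroxin roles in blue and the others in orange. The dotted line marks the filter intensity of 83, and the widest gaps are those of Ehhadh, Acaa1b, Scp2 and Decr2.

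On these 2 arrays the peroxins spread less than the enzymes, though a range over fewer genes tends to be narrower. The 13 peroxins ran from -0.32 to 0.20, with 0 past 0.32 in either direction. Pex2, at -0.318, lay just short of that limit (0.322). The 27 enzymes, transporters and membrane proteins ran from -0.63 to 0.54, and 6 of them (22.2%) passed 0.32, where the background over genes above the filter was 14.7%. The median size of the difference was nearer, 0.11 for peroxins and 0.14 for enzymes, against 0.14 for all genes above the filter. The SD over genes was 0.14 for peroxins and 0.27 for enzymes, against 0.25 for all genes above the filter. The medians were -0.03 for peroxins and -0.11 for enzymes, a gap of -0.08. After centring on the median of the genes above the filter the peroxin median was 0.03, so its sign depends on the scaling, and among the 24 members at or above the upper quartile the gap had the opposite sign (0.07). Neither the spread nor the gap could be tested with 1 array a group.

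**Figure D2:**
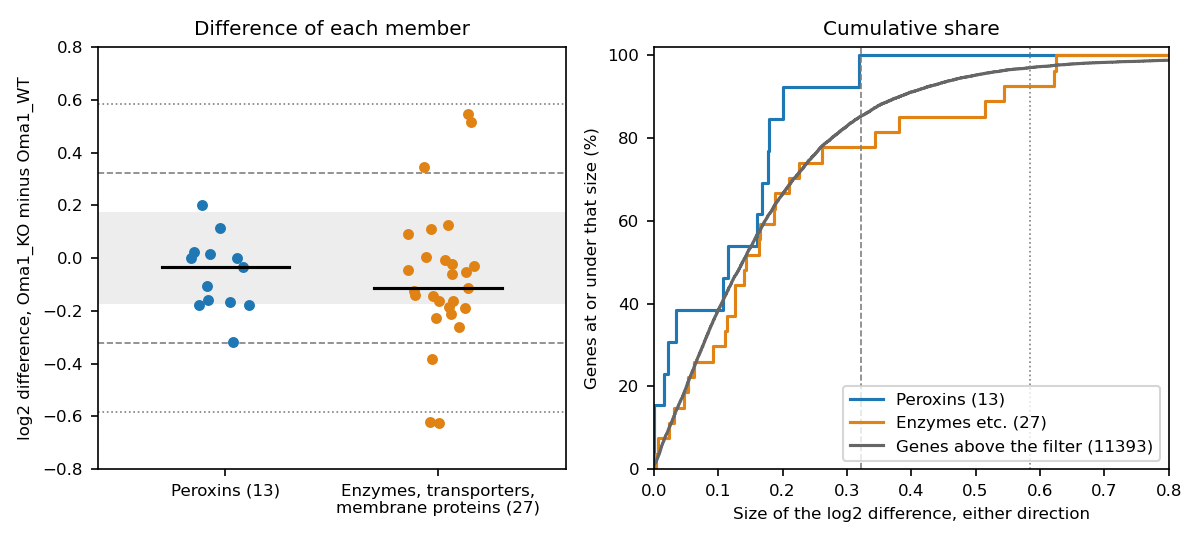
Left, the log2 difference of each peroxin and of each enzyme, transporter or membrane protein, with black lines at the medians (-0.03 and -0.11) and grey shading at plus or minus the SD of 0.17. Right, the share of genes with a difference up to a given size, for both classes and for the 11393 genes above the filter; dashed and dotted lines mark 0.32 and 1.5-fold, and the peroxin curve reaches its top before the dashed line.

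The peroxins that bring enzymes into the organelle were close to level. Pex5, the receptor for the targeting signal at the C-terminus that most matrix enzymes carry, read 298 in Oma1_KO and 321 in Oma1_WT (-0.11). Pex7, the receptor for the signal near the N-terminus, read 265 in Oma1_KO and 262 in Oma1_WT (0.02). Pex14, at which loaded receptors dock, read 472 in Oma1_KO and 465 in Oma1_WT (0.02), and its partner Pex13 read 641 in Oma1_KO and 725 in Oma1_WT (-0.18). Only the difference of Pex13 among these 4 was larger than the SD between probe sets, and by little.

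The machinery that recycles the receptors held both ends of the peroxin range. Pex2, a RING-type ubiquitin ligase that marks receptors for export, had the lowest peroxin value, 222 in Oma1_KO and 277 in Oma1_WT (-0.32), just short of 0.32 in size before rounding. Its partner ligase Pex10 was near level at 244 in Oma1_KO and 250 in Oma1_WT (-0.03), a sign that turned after quantile normalisation, loess and centring. Pex6, an ATPase that pulls receptors out of the membrane, had the highest peroxin value, 283 in Oma1_KO and 246 in Oma1_WT (0.20). Pex26, its membrane anchor, read 74 on each array, under the filter.

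Genes for building the membrane and dividing the organelle showed small differences. Pex19, the cytosolic carrier of membrane proteins, read 1685 in Oma1_KO and 1893 in Oma1_WT (-0.17), and Pex3, at which it docks, 910 in Oma1_KO and 1017 in Oma1_WT (-0.16). Pex16, which helps Pex3 reach the membrane, read 2995 on each array. Pex11a, an elongation and division factor that PPAR alpha induces in rodent liver, read 1062 in Oma1_KO and 1202 in Oma1_WT (-0.18). Its relative Pex11g read 130 in Oma1_KO and 120 in Oma1_WT (0.11). None of these 5 reached 0.32.

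Of the 3 ABC half-transporters on the list, those of fatty acyl substrates were lower. Abcd3, which takes up branched and dicarboxylic acyl-CoA, read 618 in Oma1_KO and 805 in Oma1_WT (-0.38), or 0.77 times the control value. Abcd2, a carrier of very long and polyunsaturated chains that is abundant in adipocytes, read 3458 in Oma1_KO and 4001 in Oma1_WT (-0.21). Abcd4, which is now placed at the lysosome, where it takes part in cobalamin export, read 237 in Oma1_KO and 217 in Oma1_WT (0.13). Abcd3 was past the smaller size as deposited and stood at -0.317 after loess and -0.320 after centring, against a limit of 0.322.

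The core steps of peroxisomal beta-oxidation held the widest differences, and in both directions. Ehhadh, the L-bifunctional enzyme that hydrates and dehydrogenates dicarboxylic and straight chains, read 333 in Oma1_KO and 513 in Oma1_WT (-0.62), or 0.65 times the control value, and 161 genes above the filter had a lower difference. Hsd17b4, the D-bifunctional enzyme that performs the same steps on a broader set of substrates, read 2079 in Oma1_KO and 2270 in Oma1_WT (-0.13). The isoenzymes of this step were therefore both lower but by unequal amounts, with only Ehhadh past the SD between probe sets.

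The last step, thiolytic cleavage, was split between its genes. Acaa1b, a 3-ketoacyl-CoA thiolase, read 141 in Oma1_KO and 218 in Oma1_WT (-0.63), the lowest value on the list. Acaa1a, its close copy, read 347 in Oma1_KO and 346 in Oma1_WT (0.00). These genes are near-identical in their coding sequence, so their probe sets may share signal and the split between them is uncertain. Scp2, which encodes a thiolase for branched chains and, from another promoter, a sterol carrier protein, had the highest value on the list, 842 in Oma1_KO and 577 in Oma1_WT (0.54), or 1.46 times the control value. The probe set was not assigned to either Scp2 product here. Above the filter, 164 genes had a higher difference than Scp2.

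Of the branched-chain oxidases that begin the pathway, one had a signal above the filter. Acox3 read 604 in Oma1_KO and 614 in Oma1_WT (-0.02). Acox2, also an oxidase of bile acid intermediates in liver, read 45 in Oma1_KO and 46 in Oma1_WT (-0.03), both under the filter.

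The enzymes listed as auxiliary, most of which prepare double bonds and side chains for the core steps, were split as well. Decr2, the 2,4-dienoyl-CoA reductase of peroxisomes, read 733 in Oma1_KO and 513 in Oma1_WT (0.51), or 1.43 times the control value. Ech1, a dienoyl-CoA isomerase found in peroxisomes and mitochondria, read 3530 in Oma1_KO and 2782 in Oma1_WT (0.34). Eci2, an enoyl-CoA isomerase, lay on the other side at 594 in Oma1_KO and 712 in Oma1_WT (-0.26). All 3 act on unsaturated chains, so enzymes for the same class of substrate did not lie on the same side. Pecr, a trans-enoyl-CoA reductase, read 235 in Oma1_KO and 275 in Oma1_WT (-0.23). Amacr, the racemase that makes branched chains fit for oxidation, read 206 in Oma1_KO and 231 in Oma1_WT (-0.16).

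**Figure D3:**
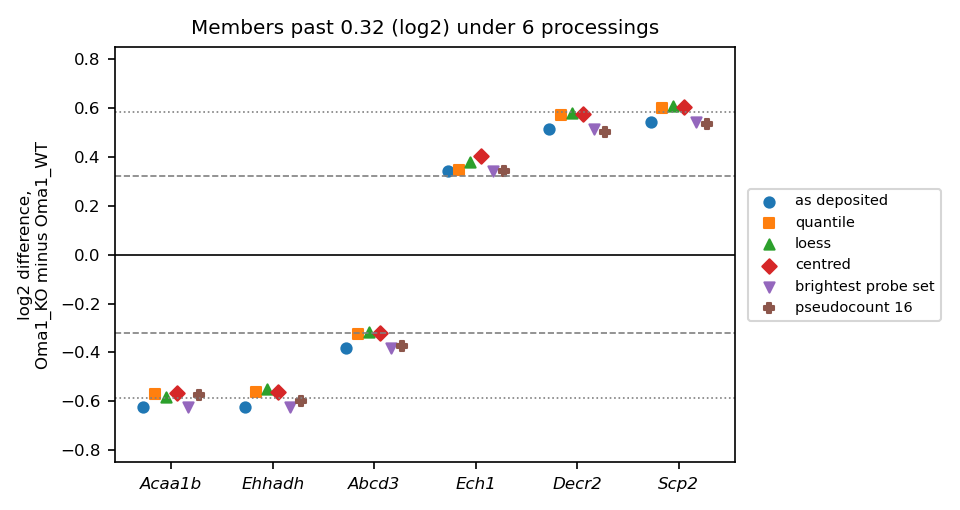
Log2 difference, Oma1_KO minus Oma1_WT, of the 6 members past 0.32, as deposited and under 5 other processings, with dashed lines at 0.32 and dotted lines at 1.5-fold. Each gene kept its side of 0, which only quantile normalisation and loess could have changed. Acaa1b, Ehhadh and Scp2 crossed the 1.5-fold line, and Abcd3 lay at the dashed line under loess and centring.

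The promoter windows of the 5 genes with the contrasts above are shown so that the thiolase copies, and the enzymes at either end of the range, can be compared by sequence. Windows run from 250 bases before to 50 after the annotated start, from RefSeq on GRCm38.p6, each written 5′ to 3′ on the gene's strand with every CG dinucleotide in capitals.
Acaa1b, chr9:119157044-119157343, minus strand: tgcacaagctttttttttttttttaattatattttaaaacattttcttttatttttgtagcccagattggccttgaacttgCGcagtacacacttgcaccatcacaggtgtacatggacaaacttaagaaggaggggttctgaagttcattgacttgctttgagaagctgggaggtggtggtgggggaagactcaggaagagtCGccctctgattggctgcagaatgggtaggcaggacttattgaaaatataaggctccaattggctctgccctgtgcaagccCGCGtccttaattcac
Acaa1a, chr9:119341044-119341343, plus strand: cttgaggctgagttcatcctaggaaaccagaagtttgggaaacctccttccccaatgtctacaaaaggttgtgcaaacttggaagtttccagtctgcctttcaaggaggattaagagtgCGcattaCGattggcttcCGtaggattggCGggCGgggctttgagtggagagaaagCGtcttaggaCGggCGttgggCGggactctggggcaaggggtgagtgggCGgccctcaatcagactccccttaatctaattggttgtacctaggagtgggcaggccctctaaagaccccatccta
Ehhadh, chr16:21787785-21788084, minus strand: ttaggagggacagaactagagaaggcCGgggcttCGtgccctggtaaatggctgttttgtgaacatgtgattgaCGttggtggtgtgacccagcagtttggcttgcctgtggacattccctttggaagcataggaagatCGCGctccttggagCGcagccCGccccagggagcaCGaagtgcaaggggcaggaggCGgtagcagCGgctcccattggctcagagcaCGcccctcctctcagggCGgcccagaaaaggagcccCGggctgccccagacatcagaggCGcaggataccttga
Scp2, chr4:108118498-108118797, minus strand: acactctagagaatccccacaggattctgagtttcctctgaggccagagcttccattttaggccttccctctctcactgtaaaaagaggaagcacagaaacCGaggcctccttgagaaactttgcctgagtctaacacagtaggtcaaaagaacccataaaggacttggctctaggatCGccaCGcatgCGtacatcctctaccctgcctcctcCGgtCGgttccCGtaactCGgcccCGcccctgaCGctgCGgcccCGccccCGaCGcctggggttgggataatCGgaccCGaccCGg
Decr2, chr17:26090115-26090414, minus strand: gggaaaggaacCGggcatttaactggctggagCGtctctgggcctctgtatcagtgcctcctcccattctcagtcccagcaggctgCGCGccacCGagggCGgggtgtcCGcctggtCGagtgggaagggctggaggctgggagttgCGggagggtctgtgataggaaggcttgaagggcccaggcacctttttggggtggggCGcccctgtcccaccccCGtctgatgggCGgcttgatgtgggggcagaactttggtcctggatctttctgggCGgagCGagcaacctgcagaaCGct
Acaa1b and Acaa1a lie on the same chromosome. In a gapped alignment of their windows 167 of 338 positions (49.4%) were identical. No unrelated pair was aligned beside it, so this share shows neither likeness nor divergence. The Acaa1b window held 4 CG dinucleotides, against 10 in that of Acaa1a, 14 in Ehhadh, 17 in Scp2 and 15 in Decr2. Over the 32 members with a window analysed the median was 16.5, against 7 over 27025 genes. It was 19 for the 11 peroxins and 16 for the 21 enzymes. The 27025 genes were taken whatever their signal, while 37 of 40 members but 57.1% of named genes passed the filter. No median over genes above the filter was computed. Ehhadh, lower in Oma1_KO, and Decr2, higher in it, thus had similar counts.

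A PPAR response element was also searched for, as a pair of AGGTCA repeats with any base between them, allowing at most 2 mismatches in the 12 fixed bases, on both strands. It was matched in 2 of the 38 member windows, while 3.86% of all 32851 windows held a match. The match in Cat was AGGTCAGAGAACA, beginning at position -204 from the start, and that in Acox2 was AGGACAGAGGTGA, in 1 of its 2 windows, after the start. None of the 5 windows printed above held a match, which says only that these letters are not in that stretch. Cat read nearly alike on the 2 arrays, and Acox2 was under the filter.

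Alpha-oxidation, which removes a carbon from phytanic acid before beta-oxidation can begin, differed little. Phyh, its hydroxylase, read 1317 in Oma1_KO and 1235 in Oma1_WT (0.09), and Hacl1, its lyase, 490 in Oma1_KO and 506 in Oma1_WT (-0.05). Catalase (Cat) read 8155 in Oma1_KO and 8193 in Oma1_WT (-0.01). The signs of Hacl1, Cat and Acox3 turned after quantile normalisation, loess and centring, and none of these differences reached the SD between probe sets.

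The 4 genes that release products and turn over cofactors were all slightly lower. Crot, which attaches shortened chains to carnitine for export, read 746 in Oma1_KO and 822 in Oma1_WT (-0.14). Acot8, an acyl-CoA thioesterase, read 194 in Oma1_KO and 210 in Oma1_WT (-0.11). Nudt7, which degrades coenzyme A, read 1003 in Oma1_KO and 1047 in Oma1_WT (-0.06), and Nudt12, which hydrolyses NADH, read 229 in Oma1_KO and 261 in Oma1_WT (-0.19). Their median was -0.13, beside -0.06 for all genes above the filter, of which 62.3% were lower.

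Ether lipid synthesis begins in peroxisomes, and its 3 genes on the list did not lie on one side. Gnpat, the acyltransferase of the first step, read 1378 in Oma1_KO and 1568 in Oma1_WT (-0.19). Far1, which supplies the fatty alcohol, read 414 in Oma1_KO and 464 in Oma1_WT (-0.16). Agps, which exchanges the acyl chain for that alcohol, read 298 in Oma1_KO and 276 in Oma1_WT (0.11). Of the membrane proteins, Pxmp4 read 1868 in Oma1_KO and 2064 in Oma1_WT (-0.14) and Pxmp2, a channel protein, 79 in Oma1_KO and 82 in Oma1_WT (-0.05), under the filter.

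Several peroxisomal enzymes have mitochondrial relatives that perform the same reaction, and 5 such pairs are given below. Decr1, the mitochondrial dienoyl-CoA reductase, read 1771 in Oma1_KO and 2149 in Oma1_WT (-0.28), where Decr2 was at 0.51. Eci1 read 1232 in Oma1_KO and 1014 in Oma1_WT (0.28), where Eci2 was at -0.26. The mitochondrial thiolase Acaa2 read 3570 in Oma1_KO and 2897 in Oma1_WT (0.30), where Acaa1b was at -0.63 and Acaa1a at 0.00. Hadha, the large subunit of the trifunctional protein, read 2512 in Oma1_KO and 2528 in Oma1_WT (-0.01), where Ehhadh was at -0.62. These pairs were put together by gene family after their values were seen, so their signs are a description only. Acaa2 serves for both Acaa1a and Acaa1b, and the share of opposite signs among other gene pairs was not computed. The 17 mitochondrial beta-oxidation genes measured ran from -0.28 to 0.30 with a median of 0.04. Of them 11 were higher and 6 lower, and 0 passed 0.32, where 62.3% of the genes above the filter were lower and 14.7% passed that size.

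**Figure D4:**
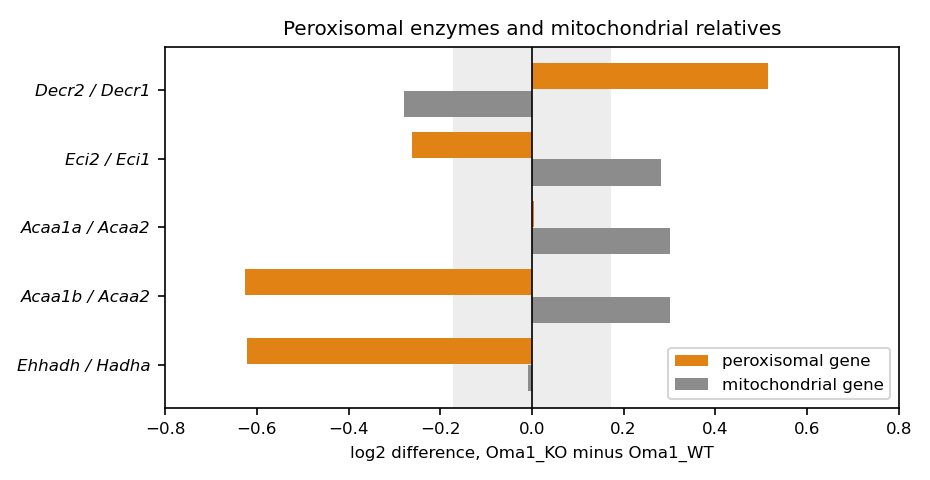
Log2 difference, Oma1_KO minus Oma1_WT, of peroxisomal enzymes (orange) and their mitochondrial relatives (grey), with grey shading at plus or minus the SD of 0.17. Decr2 (0.51) and Decr1 (-0.28), and Eci2 (-0.26) and Eci1 (0.28), lie on opposite sides of 0; Acaa2 is drawn beside each of its peroxisomal relatives.

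Other peroxisomal enzymes and transporters, a list of which 29 genes were measured, had 12 higher, 16 lower and 1 equal (median -0.07). Only 18 of them were above the filter, so the matching background is that of all 19938 named genes, with a median of 0 and 47.9% lower. Among those 18, Slc27a2, an acyl-CoA synthetase for very long chains that is abundant in liver, was the one past 1.5-fold, at 195 in Oma1_KO and 108 in Oma1_WT (0.85). Below the filter, urate oxidase (Uox) read 83 in Oma1_KO and 43 in Oma1_WT and D-amino acid oxidase (Dao) 29 in Oma1_KO and 50 in Oma1_WT. Of the 29, 6 were at least 0.32 higher and 4 at least 0.32 lower, or 34.5% together, against 14.0% of all named genes. Genes under the filter, such as Uox and Dao, are part of that share.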

How the data were processed

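Per the labels, Trizol-extracted total RNA was turned into biotinylated cRNA for Affymetrix Mouse Gene 1.0 ST arrays, 1 per group. The authors' values are linear intensities, given as whole numbers for each probe set. How these were background-corrected, summarised and scaled is not given in the sources used here. Gene names came from GEO's annotation of the platform, and only the 21789 with a single symbol of 35512 were used. Members matched the RefSeq gene table by gene identifier and symbol in 40 of 40 cases. Values were put on a log2(intensity + 1) scale, and probe sets of one gene were averaged. The filter was a mean log2 value at that of an intensity of 83, the median of all probe sets. The members and lists were chosen with earlier results of these data known. The rule named all members, Oma1, fixed pathway genes and those past 1.5-fold, and the brightest markers; most of these last are given as sums. Targeting signals were not analysed here, and a few pathway genes were not analysed here. The alternatives were quantile normalisation, loess (span 0.3), centring, the brightest probe set, a pseudocount of 16, and members above the filter or the upper quartile (326). Known fold changes added to shuffled differences of real genes were recovered, an outcome fixed by the arithmetic. The motif search found a motif planted in a made-up sequence. Averaging, filtering and scaling were not tested on simulated data. Python 3.11.15, numpy 2.4.6, pandas 2.3.3, statsmodels 0.14.6, Biopython 1.88 and matplotlib 3.10.9 were used.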

Additional observations from a re-analysis of the deposited data

How the results depend on the processing

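No paired analysis was possible because there was 1 array per group, and no array could be left out. Recomputing each of the 40 members under the 5 other scalings, summaries and pseudocounts gave 200 values that moved by less than 0.17. For the brightest probe set and for centring that outcome was fixed, since each member has 1 probe set and centring moves every gene alike by 0.061. Quantile normalisation and loess turned the sign of none of the 6 members past 0.32. Those settings moved the median of the genes above the filter by only 0.05. The pseudocount could turn no sign, since each member has 1 probe set. Under quantile normalisation and loess 4 small differences turned sign, and under centring 6 did. The count of 2 members at least 1.5-fold lower was 0 after quantile normalisation, loess and centring, and 1 with a pseudocount of 16 or at or above the upper quartile, while the count higher was 1 (Scp2) in place of 0 after quantile normalisation, loess and centring. The median of the enzymes was -0.062 after quantile normalisation and -0.053 after centring, and that of the peroxins 0.026 after centring. For members at or above the upper quartile, 6 peroxins and 18 enzymes, the peroxin median was -0.16 and the enzyme median lay 0.070 above it. The spread between animals and the detection of dim probe sets limit every value.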

Other observations

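Transcription factors that act on peroxisomal genes showed small differences or lower values. Ppara read 164 in Oma1_KO and 178 in Oma1_WT (-0.12) and Pparg, the adipocyte regulator, 3721 in Oma1_KO and 4050 in Oma1_WT (-0.12). Their partner Rxra read 818 in Oma1_KO and 999 in Oma1_WT (-0.29), the lowest of 8 nuclear receptors and coactivators. Of these 8, 6 were lower and 0 past 0.32, beside 62.3% lower among all genes above the filter. The coactivator Ppargc1a, as the mean of 2 probe sets, read 85 in Oma1_KO and 103 in Oma1_WT (-0.22), with a mean on the log2 scale under the filter. Targets of PPAR alpha known from liver, 12 of which were measured, were higher in 9 cases and lower in 3, with a median of 0.13, beside a median of 0 for all 19938 named genes, of which 9356 were higher. Since 5 of the 12 were under the filter, the count rests in part on dim signals whose detection was not assessed. Of the 7 above it, Angptl4, an inhibitor of lipoprotein lipase, read 4235 in Oma1_KO and 3533 in Oma1_WT (0.26), Acot2, a mitochondrial acyl-CoA thioesterase, 1020 in Oma1_KO and 791 in Oma1_WT (0.37), and Vnn1, a pantetheinase, 165 in Oma1_KO and 225 in Oma1_WT (-0.45); these 3 were chosen after their values were seen. Of the others above the filter, Pdk4 (0.12), Plin2 (0.14) and Cpt1a (0.05) were higher and Ucp3 (-0.10) was lower. The members Ehhadh and Acaa1b, picked after their values were seen, are targets of the same receptor in liver and were lower. Other members were not sorted by whether they are such targets, so these genes do not stand for the list. Targets thus lay on both sides of 0.

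Fission factors that peroxisomes share with mitochondria were level above the filter, with Fis1 at 2250 in Oma1_KO and 2405 in Oma1_WT (-0.10), Mff at 1047 in Oma1_KO and 1060 in Oma1_WT (-0.02) and Dnm1l, the fission GTPase, at 1188 in Oma1_KO and 1193 in Oma1_WT (-0.01).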
